A study of Mus musculus with 18 samples.

Results

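The comparison described here set unstimulated macrophages carrying a knock-in allele labelled RelA-TA-KI against unstimulated wild-type (WT) macrophages. It rests on 2 of the 18 libraries, the pair labelled 0hr with no agent, 1 library of each genotype. All libraries came from primary mouse bone marrow-derived macrophages of the C57BL/6 strain, with an age given as 12-days. The marrow cells were grown in medium conditioned by L929 cells, a source of the growth factor CSF1, and were used on day 7. The other 16 libraries are 8 matched pairs of the same genotypes taken 0.5, 1, 3 and 8 h after lipopolysaccharide (LPS, 100 ng/ml) or tumour necrosis factor (TNF, 10 ng/ml), and they serve below as libraries the resting comparison did not use. The labels do not give the residues altered in the knock-in, nor whether the libraries came from separate mice or cultures, so at rest genotype and culture cannot be told apart and no test between genotypes was possible.

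RelA is the NF-kB subunit that carries a strong transactivation domain, the TA of the allele name. In resting cells NF-kB dimers are held mostly in the cytoplasm by the IkB proteins, and a stimulus such as LPS or TNF releases them to the nucleus, where RelA binds kB sites and recruits the transcription machinery. Resting macrophages still express many genes at a basal level, among them lysosomal, lipid-handling and surface receptor genes, and some NF-kB signalling goes on without added stimulus.

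Messenger RNA was sequenced as single-end reads of 50 bases and counted per gene. The wild-type resting library held 6721917 counts and the knock-in library 4814001, within the range of 4663650 to 6721917 over all 18 libraries. In all, 15261 genes had at least 1 count in the wild-type library and 14319 in the knock-in library, against 14644 expected of the wild-type library at the knock-in depth. Both libraries had the RNA of macrophages. Lyz2, the macrophage lysozyme gene, had 47872 and 28629 counts in wild-type and knock-in, and Csf1r, the CSF1 receptor gene, had 7034 and 4692. The lymphocyte genes Cd3e, Cd3g, Nkg7 and Ncr1 were at 0 in both libraries, while Il7r, of the same list of 8, had 563 and 478 counts. Of 5 erythroid, 6 mast cell and 6 osteoclast markers only 0, 1 and 2 had enough counts to be compared. Xist was abundant in both, with 4821 and 3894 counts. Rela itself (ENSMUSG00000024927.7, GRCm38, chr19:5637483-5648130) was at 62.5 CPM (counts per 1000000, after scaling) in wild-type and 67.4 in knock-in, a ratio of 1.08 with a 95% counting interval of 0.942 to 1.24. A knock-in that alters residues leaves the transcript in place, so this count does not check the genotype.

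A gene was called past the fold at rest when its counts summed to at least 20 over the pair, its scaled ratio was at least 1.5-fold either way and the exact 95% counting interval of the ratio left out 1. These intervals cover counting error only, since reads copied by PCR are not independent molecules and no spread between cultures was measured. Of 10634 genes with enough counts, 506 (4.76%) were past the fold, of which 212 (1.99%) were higher in the knock-in and 294 (2.76%) were lower. The median log2 ratio over the 10634 genes was 0.0083. The gene lists set beside these shares below were chosen with earlier results of these data known. Their counts describe the data and test nothing. Scaling by library totals in place of trimmed means gave 170 higher and 354 lower, so the higher share of the calls was 41.9% with the main scaling and 32.4% with totals. At the edge of the fold stood Aldh1b1 (1.5002-fold higher) just inside and Gpr162 (1.498-fold) just outside, and among lower genes Twistnb (1.5045-fold) inside and Cry1 (1.4985-fold) outside.

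**Figure D1:**
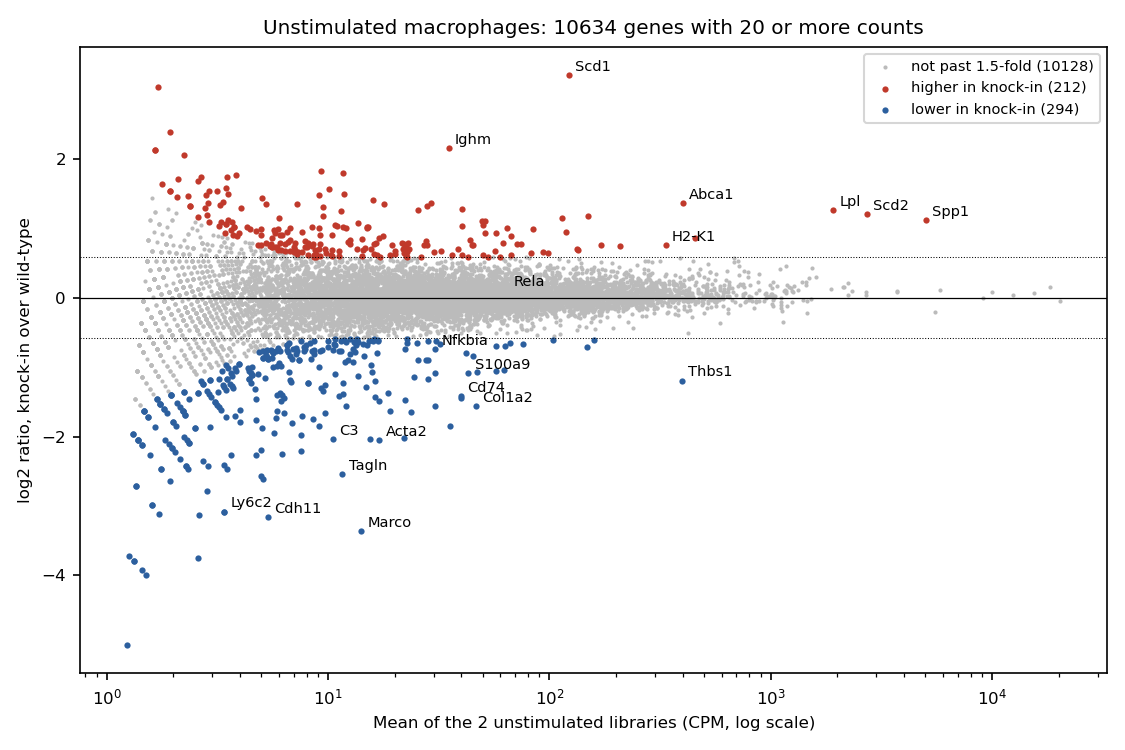
Resting knock-in over wild-type ratio (log2) against the mean level of the 2 unstimulated libraries (CPM, log axis) for the 10634 genes with at least 20 counts over the pair, 1 point a gene; dotted lines mark 1.5-fold. Red points are the 212 genes past the fold and higher in the knock-in and blue points the 294 lower, with Scd1 uppermost and Marco far down.

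In the NF-kB system the genes past the fold at rest were lower. Of 16 genes for NF-kB subunits, IkB proteins and feedback inhibitors, none was past the fold on the higher side and 2 were on the lower side, Nfkbia and Nfkbid, or 12.5% of the list against 2.76% of all genes on the lower side. The ratio was below 1 for 12 of the 16, and their median log2 ratio was -0.05. Nfkbia encodes IkB-alpha, the inhibitor that NF-kB itself induces. It had 309 counts (38.2 CPM) in wild-type and 128 counts (22.9 CPM) in knock-in, 1.67-fold lower with an interval of 1.35 to 2.06. Nfkbid, which encodes the nuclear inhibitor IkBNS, had 64 and 23 counts and was 1.92-fold lower (interval 1.18 to 3.24). The subunit genes were near 1: the ratio was 0.959 for Nfkb1 (p105 and p50), 0.968 for Nfkb2 (p100 and p52) and 0.999 for Rel (c-Rel). Relb had a ratio of 0.773 with an interval from 0.513 to 1.15, and Nfkbie, the gene for IkB-epsilon, 0.711 with an interval from 0.431 to 1.15. Tnfaip3, which encodes the ubiquitin-editing brake A20, had a ratio of 1.05.

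The 250 bases before the start of Nfkbia are shown because this gene is both an IkB gene and past the fold at rest, and those of H2-Aa because it was the class II gene with the lowest ratio (described with its family). Both are from RefSeq, build GRCm38.p6, 5′ to 3′ on the gene's own minus strand, at chr12:55492648-55492897 and chr17:34287824-34288073. Capitals mark matches to the kB consensus, searched on both strands; in H2-Aa they span 2 overlapping matches.
Nfkbia: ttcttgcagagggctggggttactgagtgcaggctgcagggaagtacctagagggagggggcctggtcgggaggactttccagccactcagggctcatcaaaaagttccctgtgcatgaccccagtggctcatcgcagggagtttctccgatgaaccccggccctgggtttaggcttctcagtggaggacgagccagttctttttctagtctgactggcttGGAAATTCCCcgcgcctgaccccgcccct
H2-Aa: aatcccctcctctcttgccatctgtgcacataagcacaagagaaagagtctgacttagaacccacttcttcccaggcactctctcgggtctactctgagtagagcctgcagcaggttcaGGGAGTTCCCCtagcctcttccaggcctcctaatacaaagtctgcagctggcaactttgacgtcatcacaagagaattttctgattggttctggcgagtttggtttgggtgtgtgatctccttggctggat
The kB consensus was present in 1281 of 32851 promoters of the same length (3.90%). Of the 24 leading genes, 13 had a promoter entry and 0 of these held a match. A match is a description of the letters and not a measured binding site. Nfkbid is also an IkB gene past the fold, but matches in its promoter were not read out and it is not shown.

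Few inflammatory genes that NF-kB drives after a stimulus were past the fold at rest. Of 18 cytokine genes, 8 had enough counts; Csf1 was lower (572 and 243 counts, 1.62-fold lower, interval 1.40 to 1.90) and Il18 was 1.52-fold higher on 59 and 62 counts, a call lost with library totals (ratio 1.467). Tnf had 139 and 79 counts, a ratio of 0.824 with an interval from 0.617 to 1.09. Il1b had 10 and 3 counts, too few for a difference of this size to be detectable at this depth. None of the 12 chemokine genes with enough counts was past the fold in either direction. Ccl2, the main monocyte attractant, had 384 CPM in wild-type and 391 in knock-in, and Ccl9 had 314 and 468, a ratio of 1.49 just short of the fold. None of 29 genes of Toll-like and TNF receptor signalling was past the fold; Tlr4, the LPS receptor gene, had a ratio of 1.15.

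Scd1 had the highest ratio of the leading genes, and several other genes of fatty acid and lipid handling were among them. Scd1 encodes stearoyl-CoA desaturase, which puts the double bond into oleate and palmitoleate, and lies at chr19:44394451-44407709. It had 195 counts (24.1 CPM) in wild-type and 1236 counts (222 CPM) in knock-in, a 9.19-fold higher level with an interval of 7.89 to 10.7. Its level in the stimulated wild-type libraries ran from 17.5 to 42.7 CPM with a median of 25.5, and in the stimulated knock-in libraries from 140 to 250 CPM with a median of 199. The knock-in library was above the wild-type library in each of the 9 conditions, with 1 library of each genotype in each. Scd2, the related desaturase gene, was 2.30-fold higher (13319 and 21152 counts, interval 2.25 to 2.35). Lpl, the lipoprotein lipase gene, was 2.40-fold higher at 1128 and 2707 CPM (interval 2.34 to 2.46).

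Of the 20 listed genes of fatty acid synthesis and of the liver X receptor (LXR), a nuclear receptor for oxysterols, 6 were past the fold and all 6 were higher in the knock-in; 19 of 20 ratios were above 1 and the list's median log2 ratio was 0.43. Beside Scd1, Scd2 and Lpl these were Abca1, Abcg1 and Fads2. Over all genes 1.99% were past the fold on the higher side. Abca1 and Abcg1 encode the transporters that load cholesterol onto lipoproteins. Abca1 went from 1816 counts in wild-type to 3212 in knock-in (2.56-fold higher, interval 2.42 to 2.72), and Abcg1 from 742 to 1158 (2.26-fold higher, interval 2.06 to 2.48). Fads2, the delta-6 desaturase gene, was 1.98-fold higher. Fasn (fatty acid synthase, ratio 1.44) and Acaca (acetyl-CoA carboxylase, 1.42) lay short of the fold, and so did Srebf1 (1.26). The LXR gene Nr1h3 itself had a ratio of 0.916 with an interval from 0.664 to 1.26. Of 17 cholesterol synthesis genes 0 were past the fold, while all 17 ratios were above 1, with a median log2 ratio of 0.23. With 1.99% of all genes past the fold on the higher side, a count of 0 in 17 does not set this list apart.

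The other leading genes on the higher side did not belong to a single list. Spp1, which encodes the secreted matrix protein osteopontin, was among the most abundant, at 3165 CPM in wild-type and 6863 in knock-in (2.17-fold higher, interval 2.13 to 2.20). Ighm, the immunoglobulin mu heavy chain gene, had 104 and 319 counts (4.45-fold higher, interval 3.55 to 5.60), while the B cell genes Cd79a and Ms4a1 had at most 1 count in either library. The remaining leaders had fewer counts than Spp1. Fat3, an atypical cadherin gene, was 3.49-fold higher (42 and 101 counts). Lipg, the endothelial lipase gene, was 3.56-fold higher (33 and 81 counts), and Dio2, which encodes the deiodinase that activates thyroid hormone, 2.97-fold (41 and 84 counts). Dhrs9, a retinol dehydrogenase gene, was 2.57-fold higher (132 and 234 counts) and Cgnl1, a junction protein gene, 2.43-fold (190 and 319 counts). Together with Scd1, Scd2, Lpl, Abca1 and Abcg1 these are the 12 leaders, those whose interval lay farthest from 1.

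Several further groups had several members on the higher side and none on the lower. Of 22 glycolysis and hypoxia-response genes, 5 were higher: Egln3 (a HIF prolyl hydroxylase gene, 2.79-fold), Vegfa (2.06-fold), Bnip3 (2.03-fold), Slc16a3 (the lactate exporter MCT4, 2.002-fold) and Pfkl (phosphofructokinase, 1.70-fold); 21 of 22 ratios were above 1 and the median log2 ratio was 0.44. Of 29 interferon-stimulated genes with enough counts, 7 were higher, and 27 had a ratio above 1. Ifi27l2a had 81 and 113 counts (2.02-fold, interval 1.51 to 2.72) and Oasl1, a member of the oligoadenylate synthetase-like family, 14 and 29 counts (3.00-fold, interval 1.54 to 6.15). Irf7, which amplifies the interferon response, had a ratio of 1.20 (interval 0.854 to 1.68). Of 23 immediate early genes, 3 were higher: Fos (121 and 200 counts, 2.40-fold), Egr1 (81 and 112 counts, 2.004-fold) and Egr2 (19 and 28 counts, 2.14-fold). These groups were read against 1.99% of all genes on the higher side, as a description only.

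**Figure D2:**
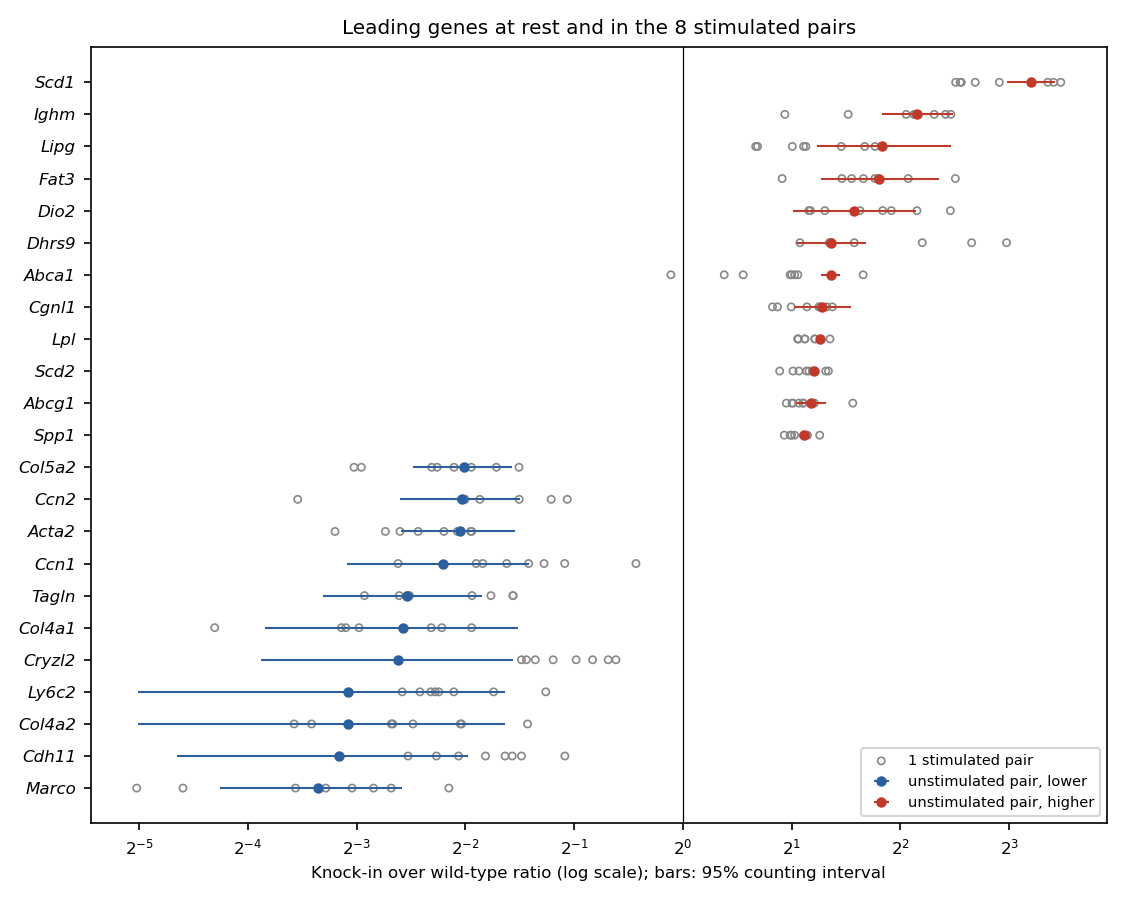
Knock-in over wild-type ratio (log axis) of the leading genes, 12 on the higher and 11 on the lower side. Filled points with bars are the unstimulated pair with its exact 95% counting interval and open circles are the 8 stimulated pairs (a pair with 0 counts in the knock-in, as for Col4a1, is not drawn); Scd1 stands farthest right (9.19-fold higher at rest) and Marco farthest left (10.3-fold lower), and only Abca1 has a circle across the line of equality.

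Marco had the lowest ratio of the leading genes. It encodes a class A scavenger receptor that binds bacteria and particles, and lies at chr1:120474538-120505024. It had 208 counts (25.7 CPM) in the wild-type resting library and 14 counts (2.51 CPM) in the knock-in library, 10.3-fold lower with an interval of 5.97 to 19.1. In the stimulated libraries wild-type ran from 17.7 to 764 CPM (median 52.6) and knock-in from 2.73 to 40.8 CPM (median 3.90), the knock-in library being lower in 8 of 8 pairs by 4.44- to 32.5-fold. The related scavenger receptor gene Msr1 had a ratio of 0.967 (interval 0.922 to 1.01), and Cd36, the fatty acid translocase gene, a ratio of 1.37. In that list of 12 scavenger and lectin receptor genes Marco was the 1 lower gene and Clec10a the 1 higher. Over all genes 2.76% were past the fold on the lower side and 1.99% on the higher. Clec10a, a galactose lectin gene, was 2.55-fold higher on 33 and 58 counts. Of 18 macrophage identity genes 1 was higher and 2 were lower, read against the same shares. Most of the others were near 1 and short of the fold, among them Adgre1, Csf1r, Cd68 and Mertk. Fcgr1, the high-affinity IgG receptor gene, was 1.84-fold higher (interval 1.61 to 2.11). The monocyte genes Ly6c2 (49 and 4 counts, 8.45-fold lower, interval 3.10 to 32.3) and Ccr2 (89 and 35 counts, 1.75-fold lower) were past the fold on the lower side. Ly6c2 has a near-identical neighbour, Ly6c1, so its reads may be split between copies.

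Genes of the extracellular matrix and the contractile cytoskeleton made up most of the leading genes on the lower side. Acta2, which encodes smooth muscle actin, had 222 counts (27.5 CPM) in the wild-type and 37 counts (6.63 CPM) in the knock-in library, 4.14-fold lower with an interval of 2.91 to 6.03. Tagln (transgelin) had 160 and 19 counts, 5.81-fold lower (interval 3.60 to 9.90), and Cdh11, a mesenchymal cadherin gene, 78 and 6 counts, 8.97-fold lower (interval 3.94 to 25.2). In the stimulated libraries Acta2 ran from 21.8 to 37.7 CPM in wild-type and from 2.38 to 8.01 CPM in knock-in, with no overlap. The basement membrane collagen genes Col4a1 (5.95-fold) and Col4a2 (8.45-fold), which lie head to head and overlap at their starts, were lower on 69 and 8, and 49 and 4 counts. Col5a2 was 4.04-fold lower (287 and 49 counts). The matricellular genes Ccn2 (4.08-fold) and Ccn1 (4.60-fold) were lower too, on 201 and 34, and 100 and 15 counts. Cryzl2, a quinone oxidoreductase-like gene, was among the leaders at 6.12-fold lower on 71 and 8 counts.

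The listed genes of matrix proteases and remodelling went both ways. Over all genes 1.99% were past the fold on the higher side and 2.76% on the lower. Of the 16 listed, 3 were past the fold on the higher side (Spp1, Mmp13 at 2.81-fold and Mmp12, macrophage elastase, at 1.81-fold) and 7 on the lower side. The lower members included Thbs1, the thrombospondin gene, at 552 CPM in wild-type and 241 in knock-in (2.29-fold lower, interval 2.15 to 2.43), Fn1, the fibronectin gene (2.08-fold), and the protease inhibitor genes Timp1 (2.28-fold) and Timp3 (2.31-fold). The lists drawn up after the resting values had been seen describe the same pattern and are not evidence for it. Of 12 collagen genes with enough counts 8 were lower and 1, Col23a1, was higher. Of 13 collagen-processing and matrix genes 10 were lower, among them Lox (367 and 86 counts), Sparc (233 and 52) and Postn (83 and 12). Of 10 contractile and CCN genes 8 were lower, and of 6 genes of the bone morphogenetic protein response 3 were lower, Id1 (266 and 66 counts), Id3 (318 and 97) and Smad6 (145 and 34), and 1, Bambi (56 and 58), was higher at the edge of the fold, a call lost with library totals (ratio 1.446).

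Stromal, neutrophil and progenitor markers past the fold were lower in the knock-in as well, read against 2.76% of all genes on the lower side. Of 7 stromal markers, 3 had enough counts and all 3 were lower: Col1a1 (471 and 119 counts, 2.73-fold), Col1a2 (561 and 131 counts, 2.95-fold) and Cxcl12 (25 and 5 counts). Dcn and Col3a1 had at most 8 counts in either library and Lum was at 0 in both. Pdgfra, also short of the minimum count, went the other way with a ratio of 1.21. The summed stromal level was 133 CPM in the wild-type and 47.5 CPM in the knock-in library at rest, and 99.2 to 192 against 13.9 to 72.1 CPM in the stimulated libraries. Of 9 neutrophil markers, 7 had enough counts and all 7 were lower, S100a9 at 473 and 154 counts, S100a8 at 293 and 108, Ngp at 336 and 109 and Mpo at 64 and 12. Ly6g, the surface marker of mature neutrophils, had 1 and 0 counts. Their summed level was 170 CPM in the wild-type and 81.9 CPM in the knock-in library, and 184 to 349 against 101 to 244 CPM in the stimulated libraries. Of 7 myeloid progenitor genes, a list chosen after the values were seen, 5 were lower, Cd34 among them at 59 and 12 counts, while Kit had 47 and 48 counts (ratio 1.48, interval 0.969 to 2.26). That list shares Elane with the neutrophil markers, and Col1a1 and Col1a2 are also among the lower collagen genes above, so these counts overlap. The summed ratio was 1.23 for lymphocyte markers, nearly all of it Il7r, 1.42 for mast cell and basophil markers, nearly all of it Kit, and 1.05 for erythroid markers, each of which had at most 7 counts. In RNA from bulk cultures, fewer cells of a type and less RNA per cell cannot be told apart, and the part of these cells in the lower matrix, contractile and Ly6c2 counts was not tested.

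Antigen presentation genes past the fold differed by class. Of the 17 listed, 2 were higher and 4 lower, read against 1.99% and 2.76% of all genes. The other members were not past the fold, among them H2-DMa (ratio 0.979) and H2-DMb1 (0.683) of the class II pathway. On the class I side Psmb10 (0.987) and Psmb9 (1.45) were not past it either. The 4 class II pathway genes past the fold were lower: H2-Aa (203 and 50 counts, 2.80-fold, interval 2.05 to 3.90), Cd74, the invariant chain gene (470 and 121 counts, 2.68-fold, interval 2.19 to 3.30), H2-Eb1 (130 and 48 counts, 1.87-fold) and H2-Ab1 (224 and 93 counts, 1.66-fold). Ciita, the class II transactivator gene, had 17 and 5 counts, with an interval of the ratio from 0.123 to 1.20. On the class I side H2-K1 (2019 and 2347 counts, 1.68-fold, interval 1.59 to 1.79) and its activator gene Nlrc5 (1.55-fold, and 1.495-fold with library totals) were higher, and B2m had a ratio of 1.42, short of the fold. Scaled by library totals, the list of 17 held 1 higher and 5 lower genes in place of 2 and 4. Class I genes are close paralogs, so their reads may be shared. The dendritic cell marker Cd209a had 19 and 1 counts, and the dendritic genes Xcr1 and Clec9a had at most 1 count in either library; the part of such cells in the class II counts was not tested. Among 10 complement genes with enough counts, only C3 was past the fold, at 137 and 23 counts (4.11-fold lower, interval 2.63 to 6.70).

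In the knock-in resting library 1898 genes with a count in wild-type were at 0, with a median of 1 count in wild-type, and 956 genes with a count in the knock-in were at 0 in wild-type, also with a median of 1. The wild-type library was deeper (6721917 counts against 4814001), so the 2 numbers of genes cannot be compared directly. Of the 1898 genes, 6 had 14 or more counts, and 4 of these are given here. Against the 3 counts that an observed 0 allows, Ptprf (20 and 0 counts) was at least 4.60-fold lower, Egfr (17 and 0) at least 3.91-fold, Emcn, an endothelial sialomucin gene (16 and 0), at least 3.68-fold and Saa3, an acute-phase protein gene (14 and 0), at least 3.22-fold lower. These bounds leave out the counting error of the wild-type library; with it, the exact counting interval starts at 3.41-fold lower for Ptprf, 2.85 for Egfr, 2.66 for Emcn and 2.29 for Saa3. Ptprf alone of these reached the minimum of 20 counts. They were named after their values were seen.

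Of 5 alternative activation genes with enough counts, Chil3, a chitinase-like gene (170 and 48 counts, 2.44-fold, interval 1.76 to 3.44), and Tgm2, the tissue transglutaminase gene (629 and 267 counts, 1.63-fold), were lower and Egr2 was higher. Each other group held at most 1 gene past the fold. Over all genes 4.76% were past it, so 0 or 1 in lists of this size does not mark a group as unchanged. None of 24 cell cycle genes was past it, although 20 of the 24 ratios were below 1 with a median log2 ratio of -0.17. The same count of 0 held for 21 lysosome genes, 19 respiratory chain genes, 17 genes of the unfolded protein and amino acid responses, 9 heat shock genes and 13 clock genes. Nqo1 (2.25-fold lower) was the 1 NRF2 target of 14 past the fold, Phlda3 (2.35-fold lower) the 1 p53 target of 11 and Rpl5 the 1 ribosomal protein gene of 22, on 80 and 33 counts. Gadd45b (96 and 113 counts, 1.71-fold higher) was the 1 survival and adhesion gene of 15 past it.

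**Figure D3:**
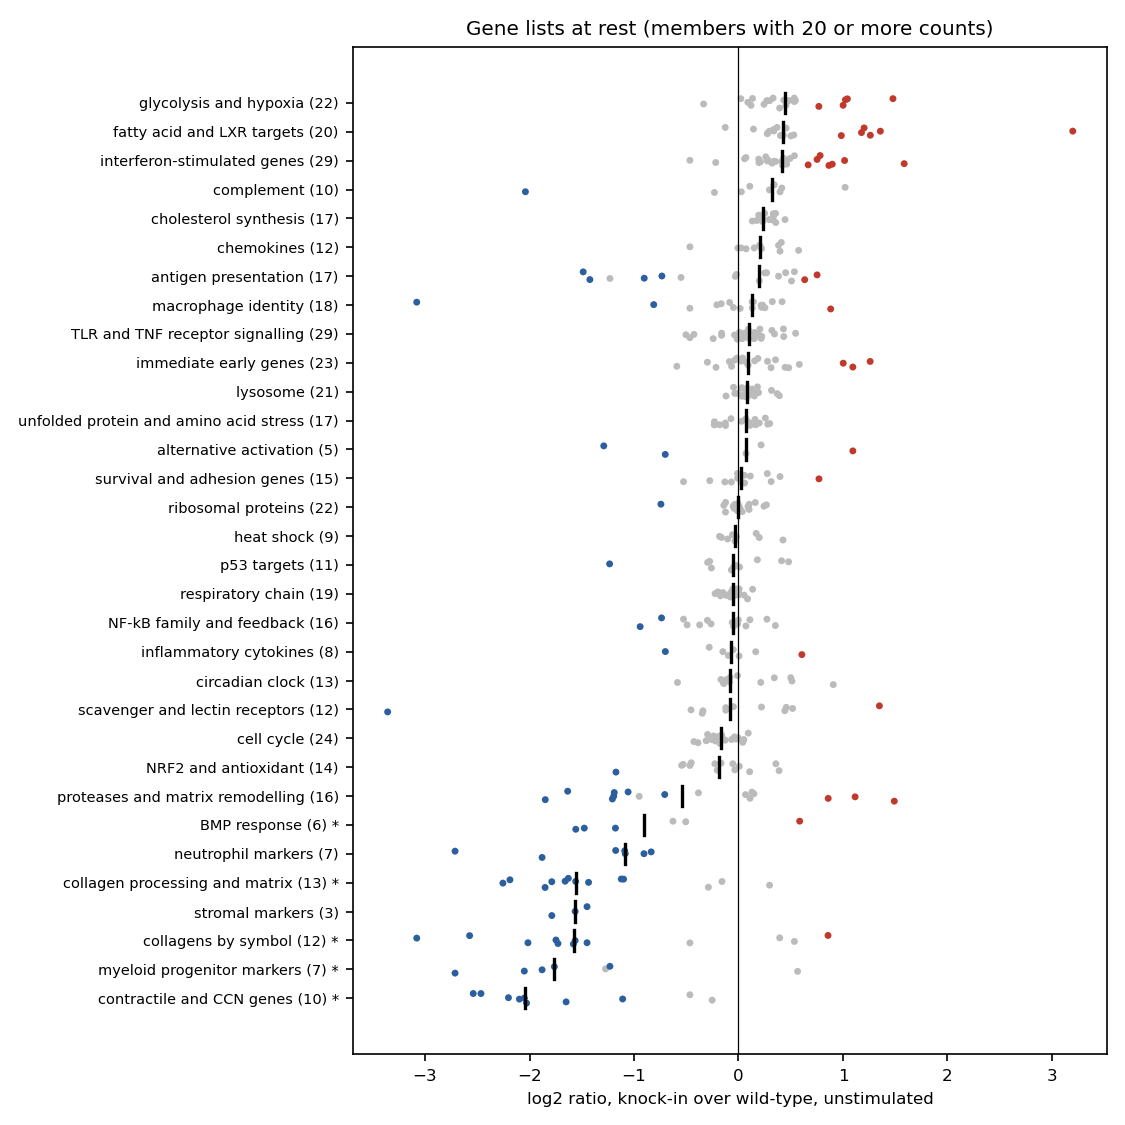
Log2 ratio of knock-in over wild-type at rest for each member, 1 point a gene, of each list; the number of members with at least 20 counts stands beside the name, the black bar is the median, red and blue points are past the fold, and an asterisk marks lists chosen after the values were seen. Glycolysis, fatty acid and interferon lists have red points and no blue ones, and all 7 neutrophil and all 3 stromal markers are blue. Lists without an asterisk were chosen with earlier results of these data known.

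The stimulated libraries gave the same measure in other libraries. The genotype effect over the 8 stimulated pairs, with stimulus and time as a block, was tested with edgeR's quasi-likelihood test and Benjamini-Hochberg adjustment. Of 11270 genes, 1080 (9.58%) were called higher in the knock-in and 895 (7.94%) lower at an adjusted p under 0.05. Scaling by library totals gave 652 higher and 1586 lower, so the higher share went from 54.7% to 29.1%. Of the 212 genes higher at rest, 210 entered this fit; 119 of them (56.7%) were called higher and 2 lower. Of the 294 genes lower at rest, 290 entered it; 195 (67.2%) were called lower and 0 higher. The median log2 difference of the first set was 0.86 at rest and 0.51 after stimulation, and of the second -1.26 and -0.92. Both sets were chosen on the resting ratio, which by itself makes the resting medians larger in size. These medians therefore cannot show whether the genotype difference was smaller after stimulation. The direction was the same in 8 of 8 pairs for 91 of the higher and 173 of the lower genes. Across 10595 genes the resting log2 ratio and the stimulated log2 difference had a Pearson correlation of 0.612 and a Spearman correlation of 0.422; the points are genes, which are not independent replicates, and the 2 sets share no library. Whether they share mice or cultures the labels do not say, and the p-values measure only the spread between these libraries.

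All 12 leading genes on the higher side and all 12 on the lower side were called in the same direction in the stimulated libraries. Scd1 was higher by 2.92 ± 0.13 on the log2 scale (SE, 8 pairs, edgeR adjusted p = 2.1e-07), in 8 of 8 pairs, and Ighm by 2.05 ± 0.14 (edgeR adjusted p = 4.0e-06). Lpl was higher in each pair by between 2.08- and 2.55-fold. Abca1 alone of the 12 higher genes was not higher in every pair: its difference was 0.83 ± 0.16 (edgeR adjusted p = 0.0072), with pair ratios from 0.927 to 3.15. Marco was lower, with a log2 difference of -3.52 ± 0.28 (edgeR adjusted p = 4.9e-05), and Acta2 with -2.35 ± 0.12 (edgeR adjusted p = 2.0e-07).

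The gene groups were counted in the same fit. Over all genes 9.58% were called higher and 7.94% lower, shares that shift with the scaling as given above. In stimulated cells 14 of 20 fatty acid and LXR genes, 16 of 22 glycolysis and hypoxia genes and 17 of 32 interferon-stimulated genes were called higher and 0 of each lower. Cholesterol synthesis genes, none past the fold at rest, had 10 of 17 called higher. The stimulated test asks for no minimum fold, so counts under the 2 rules are not alike. The median log2 difference of the cholesterol list was 0.23 at rest and 0.23 after stimulation. Of the 16 NF-kB genes, 8 were called lower after stimulation and 1 higher, against the 2 past the fold under the resting rule. Their median log2 difference was -0.05 at rest and -0.72 after stimulation. Nfkbia ran from 400 to 1677 CPM in stimulated wild-type and from 112 to 902 CPM in stimulated knock-in libraries, with a log2 difference of -1.58 ± 0.35 (edgeR adjusted p = 0.015, and 0.052 with no filter on low counts), against 38.2 and 22.9 CPM at rest. Of 18 chemokine genes in that fit 5 were called higher and 6 lower. Egr2, 2.14-fold higher at rest, had a log2 difference of -0.05 ± 0.39, and Il18, 1.52-fold higher at rest, of -0.11 ± 0.10; neither was called.

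**Figure D4:**
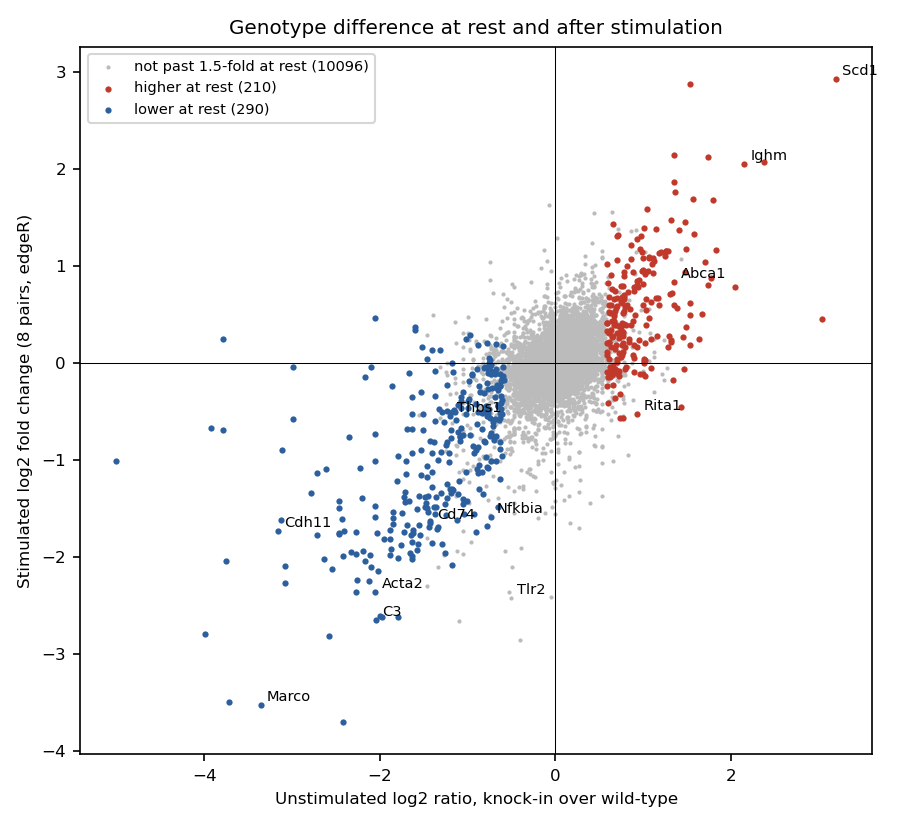
Log2 difference between genotypes over the 8 stimulated pairs (edgeR) against the unstimulated log2 ratio, 1 point a gene; red and blue points are past the fold at rest. Scd1 and Marco lie far out in the same direction on both axes, while Tlr2 is short of the fold at rest and far down on the stimulated axis.

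Whether a gene's resting difference departed from its stimulated difference was tested as an interaction over all 18 libraries, where the lone resting pair is assumed to vary like the stimulated pairs. None of 11308 genes (0%) was called by edgeR at an adjusted p under 0.05, and 190 (1.68%) had an unadjusted p under 0.05. DESeq2 called 1 gene and limma-voom 0. The gene was Tlr2, which encodes the receptor for bacterial lipoproteins. At rest it had 460 counts (56.9 CPM) in wild-type and 224 counts (40.2 CPM) in knock-in, a ratio of 0.706 with an interval from 0.599 to 0.830, short of the fold. In stimulated cells wild-type ran from 235 to 1462 CPM and knock-in from 48.1 to 197 CPM without overlap, the knock-in being at between 0.134 and 0.230 of wild-type in the pairs. The log2 difference between the resting and stimulated effects was 1.92 ± 0.28, with an adjusted p of 0.199 in edgeR, 2.7e-05 in DESeq2 and 0.647 in limma-voom, and from 0.0526 to 1 in edgeR as each stimulated pair was left out. The gene was named after its values were seen.

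**Figure D5:**
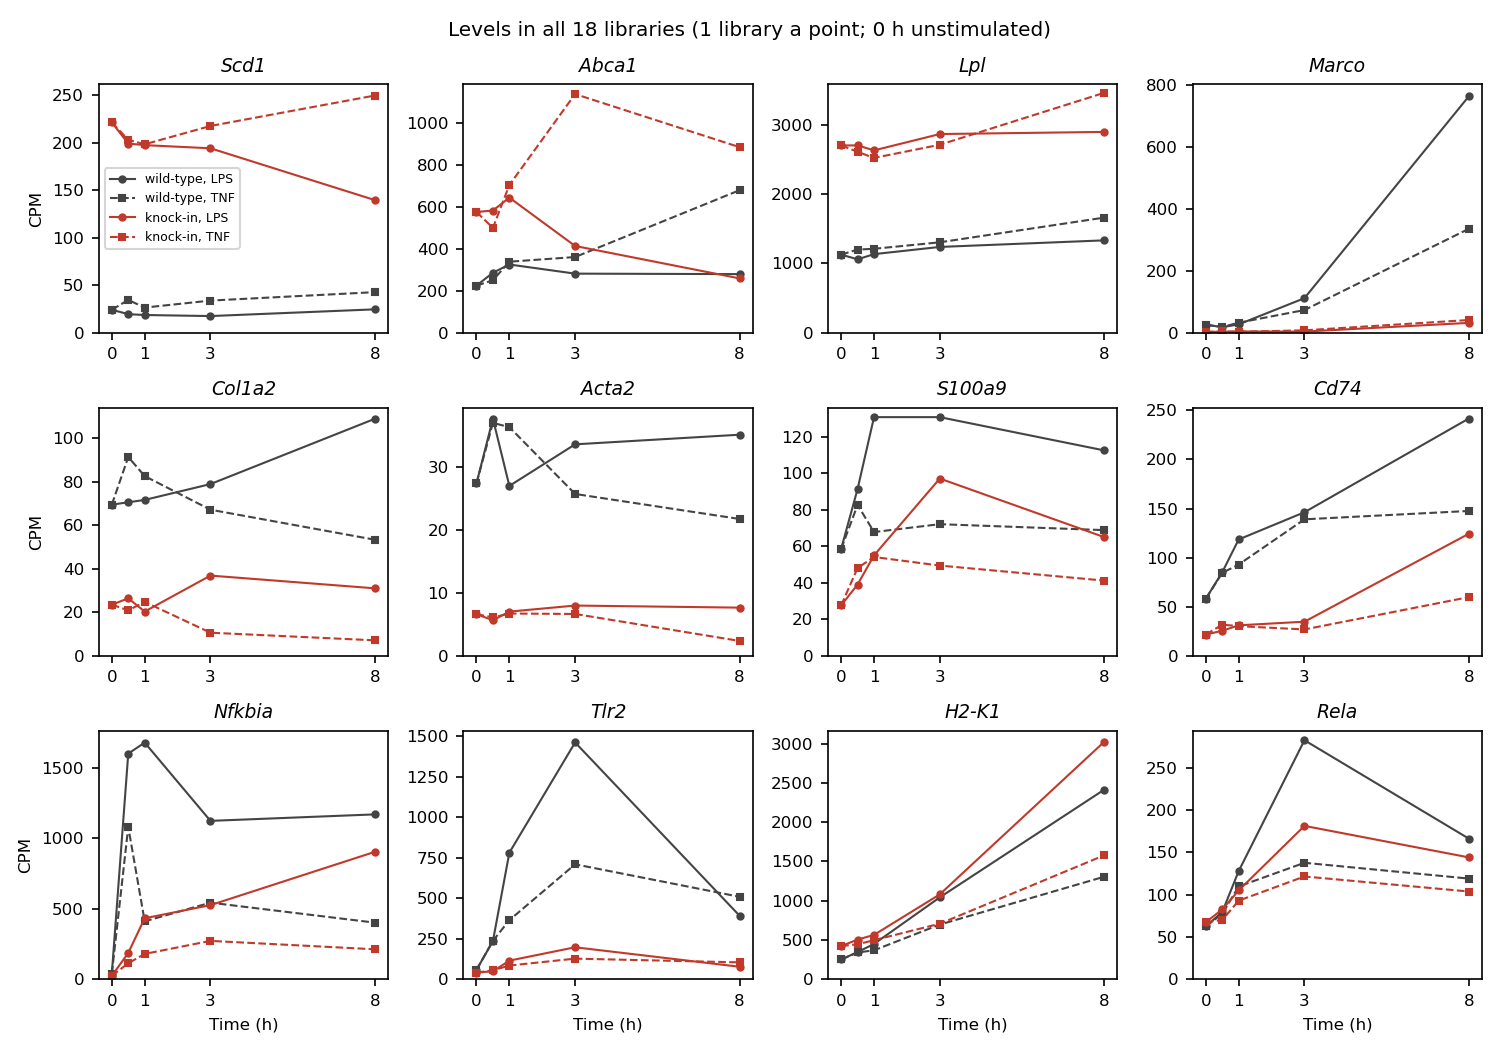
Level (CPM, linear axes from 0) against time (h) of 12 genes in each of the 18 libraries, 1 point a library; wild-type is dark and knock-in red, LPS solid and TNF dashed, and 0 h is the unstimulated pair, drawn in both courses. For Scd1 and Lpl every knock-in point lies above every wild-type point, while Tlr2 is close at 0 h and apart at all later times.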

How the data were processed

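Polyadenylated RNA of 18 libraries was sequenced. The authors deposited 1 table of read counts per gene, with 45706 Ensembl gene identifiers; the submitters' processing notes name cutadapt 1.12, STAR, featureCounts 1.5.0, DESeq2 and mm10 without saying which made the table. The kit marks strand per the labels' protocols, but how the counting treated strand, and with which annotation release, is not given in the sources used here; reads of overlapping, antisense or near-identical genes may be shared. Symbols and coordinates came from GENCODE M21 (GRCm38), matched without the version number; 563 identifiers had no match.

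Counts were scaled with trimmed means (TMM, edgeR 4.0.16) over all 18 libraries and genes kept by filterByExpr, and CPM are counts divided by the scaled library size, times 1000000. The resting ratio has no test: it carries an exact 95% Clopper-Pearson interval on the knock-in share of the summed counts (scipy 1.17.1), and a gene was called as the report states. Over the 16 stimulated libraries, edgeR's quasi-likelihood test with stimulus and time as a block gave the genotype effect (biological coefficient of variation 0.114, 7 residual degrees of freedom), and the interaction was fitted over all 18. Count depth sets the interval width. Alternatives were DESeq2 1.42.0, limma 3.58.1 (voom), other scalings, filters and folds, and leaving out each stimulated pair; the fits were tested on simulated counts.

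Leading genes were the 12 in each direction, of those past the fold with at least 50 counts and without numbered gene models or pseudogenes, whose interval lay farthest from 1; each list also contributed up to 3 members past the fold, or its most abundant member. The members and the 33 gene lists were chosen with earlier results of these data known, and 5 further lists after the resting values were seen. Of the 12 leading genes on the lower side 1 is not reported here by name.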

Additional observations from a re-analysis of the deposited data

How the results depend on the processing

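The total counts of resting calls kept within 1.5 times its value under other scalings and count minimums (170 to 252 higher, 202 to 354 lower). A fold of 2 left 81 higher and 192 lower genes, and asking the near bound of the interval to reach 1.5-fold left 52 and 105; all are among the 212 and 294. Counts within single lists moved more: 243 stayed within that margin and 23 did not in each direction, and with library totals Il18, Nlrc5 and Bambi were no longer past the fold. The stimulated calls went from 1080 higher and 895 lower to 652 and 1586 with library totals, which move the median log2 difference by -0.09; they ranged from 830 to 1003 higher and from 716 to 1007 lower as each stimulated pair was left out. The interaction called 1 gene, Tlr2, with no filter on low counts and 1 with DESeq2. Of the resting calls, 96 to 121 higher and 183 to 241 lower genes were also called in stimulated cells under all alternatives.

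Sign reversals were limited to genes that did not pass the stimulated test. As log2 differences, Ccl2 was at -0.0044, mt-Co1 at -0.034 and Nfatc1 at -0.055 with library totals, and Egr2 at 0.37 with DESeq2. As each stimulated pair was left out, Egr2 ranged from -0.34 to 0.20, Rpl5 from -0.091 to 0.049 and Xist from -0.091 to 0.026. The cause was not tested. The condition, shared by 1 library of each genotype, entered each fit as a block; beyond it, no pairing by replicate number could be fitted, since the labels give no such numbers. With 1 library a side, resting differences carry counting error only, and genes with few counts have wide intervals.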

Other observations

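The share of genes past the same 1.5-fold rule was lowest in the unstimulated pair. It was 4.76% at rest, 5.74% to 10.4% in the 4 TNF pairs and 6.20% to 20.7% in the 4 LPS pairs, with the highest value at 8 h of LPS; depth differs between pairs and the shares were not tested against each other. Genes on the higher side outside the lists included Myo1e, an unconventional myosin gene (571 and 875 counts, 2.22-fold higher, interval 1.996 to 2.472), and Pltp, the phospholipid transfer protein gene (130 and 223 counts, 2.49-fold higher, interval 1.99 to 3.11). Both were called higher in stimulated cells and were named after their values were seen.

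Genes past the fold were spread over the chromosomes, from 1.98% of the genes tested on chromosome 15 to 6.72% on chromosome 9 among the autosomes and X. On chromosome 19, which holds Rela, 11 of 388 genes (2.84%) were past the fold. Within 5 Mb of Rela 3 of 161 genes (1.86%) were: Fads2, Tm7sf2, a sterol reductase gene (1.69-fold higher), and Tmem216 (23 and 5 counts, 3.17-fold lower). Rita1, a small regulator of Notch signalling, had 22 and 29 counts and was 1.91-fold higher at rest, while it was lower in 8 of 8 stimulated pairs; the interaction had an unadjusted p of 0.0026 and an adjusted p of 1 in edgeR.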
